A study of Homo sapiens with 15 samples.

Results

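The BCL2 family genes BCL2, BCL2L1, MCL1, BAX, BAK1, BBC3, PMAIP1, BCL2L11, BID and BIK were described across 5 ovarian cancer cell lines. They were chosen by symbol, and all 10 were among the 16604 genes of the expression table. OVCAR4 is an established cell line of high-grade serous ovarian carcinoma. The parental line (Ovcar4Parental) is labelled sensitive to carboplatin and cisplatin. Ov4Cis is its cisplatin resistant derivative and Ov4Carbo its carboplatin resistant derivative, each made by stepwise raising of the drug in culture. Ov4Carbo4 and Ov4Carbo7 are labelled carboplatin resistant, and each was grown from a single cell of Ov4Carbo, so each is 1 clone. Each line had 3 biological replicates (15 samples in all), grown in DMEM with fetal bovine serum. Whether the RNA was taken with drug in the medium is not stated. Each resistant line is 1 derivation, so p-values measure the spread between samples of a line and not between independent selections.

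Proteins of the BCL2 family decide whether the outer mitochondrial membrane is permeabilised, the step that releases cytochrome c and starts the caspase cascade. BCL2, BCL-XL (the long product of BCL2L1) and MCL1 keep the membrane intact, and BAX and BAK (product of BAK1) form the pores. The BH3-only proteins PUMA (BBC3), NOXA (PMAIP1), BIM (BCL2L11), BID and BIK sense damage and either neutralise the guardians or activate the pore formers. Platinum drugs kill cells in part through this mitochondrial pathway. Much of the family's control is by splicing, protein turnover and cleavage, which gene-level RNA values do not show.

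Expression is given as log2 RPKM, a read density scaled to gene length and sequencing depth, after conditional quantile normalization, so levels can be compared between genes per length. The median of every sample was 2.77. Depth per sample is unknown, and differences in total RNA between lines are not measurable after this normalization. In these bulk samples a change in the share of cells that express a gene cannot be told apart from a change per cell. Replicates of Ov4Carbo were the least alike (mean root-mean-square difference 0.69 log2 units, against 0.34 to 0.48 in the other lines), where replicate 1 differed from replicates 2 and 3 by 0.77 and 0.72 and these from each other by 0.57. The sample titles run in 2 numerical series, which the labels do not call a batch: 7 samples (replicate 1 of Ov4Carbo and all samples of Ov4Carbo4 and Ov4Carbo7) and 8 samples (the rest). A difference between either clone and the parental line therefore cannot be told apart from a difference between the series, except through Ov4Carbo. Only Ov4Carbo had samples in both series, so a term for the title series rests on its replicate 1 against its replicates 2 and 3. Among the parental line, Ov4Cis and Ov4Carbo, that term gives the same differences as leaving replicate 1 of Ov4Carbo out. There these are not separate checks. The müllerian epithelial marker PAX8 was present in every sample (log2 RPKM 5.66 to 6.87), while WT1 was below 0 in all. EPCAM and CDH1, epithelial adhesion genes, were low in Ov4Cis (line means 1.17 and -3.52, against 5.98 and 4.63 in the parental line). Both also fell against the parental line in Ov4Carbo7 (log2 fold changes -2.97 and -2.82), Ov4Carbo (-0.66 and -1.75) and Ov4Carbo4 (-0.75 and -1.01). Of 11 listed epithelial and lineage markers in the table, 7 fell and 3 rose (WT1, SOX17 and MECOM) in Ov4Cis at a limma adjusted p under 0.05. In Ov4Carbo 5 fell and 1 rose (WT1), and in Ov4Carbo4 6 fell and 3 rose (WT1, SOX17 and MECOM). In Ov4Carbo7 7 fell and 1 rose (PAX8). With each sample left out in turn, EPCAM in Ov4Carbo was lost in 2 of 15 fits (adjusted p up to 0.0597). CDH1 in Ov4Carbo4 was lost in 4 (up to 0.0816).

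MCL1 was the most abundant family transcript in 15 of 15 samples, between percentile 98.7 and 99.7 of the genes of a sample. BCL2L1 and BAX followed, BAK1, BID, PMAIP1 and BCL2L11 lay in the middle, and BCL2, BBC3 and BIK held ranks 8 to 10 in every sample. BBC3 was the lowest placed of all, between percentile 2.73 and 22.3 in the same measure. Limma's moderated F-test over the 5 lines gave an adjusted p under 0.05 for 9 of the 10 genes, all but BBC3 (adjusted p = 0.0913). BBC3 passed it without replicate 1 of Ov4Carbo (adjusted p = 0.00697) and with a term for the title series, which rests on that sample (0.00447). It also passed after quantile normalization (0.0269), and BCL2L1 failed the test without replicate 1 of Ov4Carbo7 (0.0518). Over all genes 76.9% passed this test, so the share among the members is near that of the table.

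**Figure D1:**
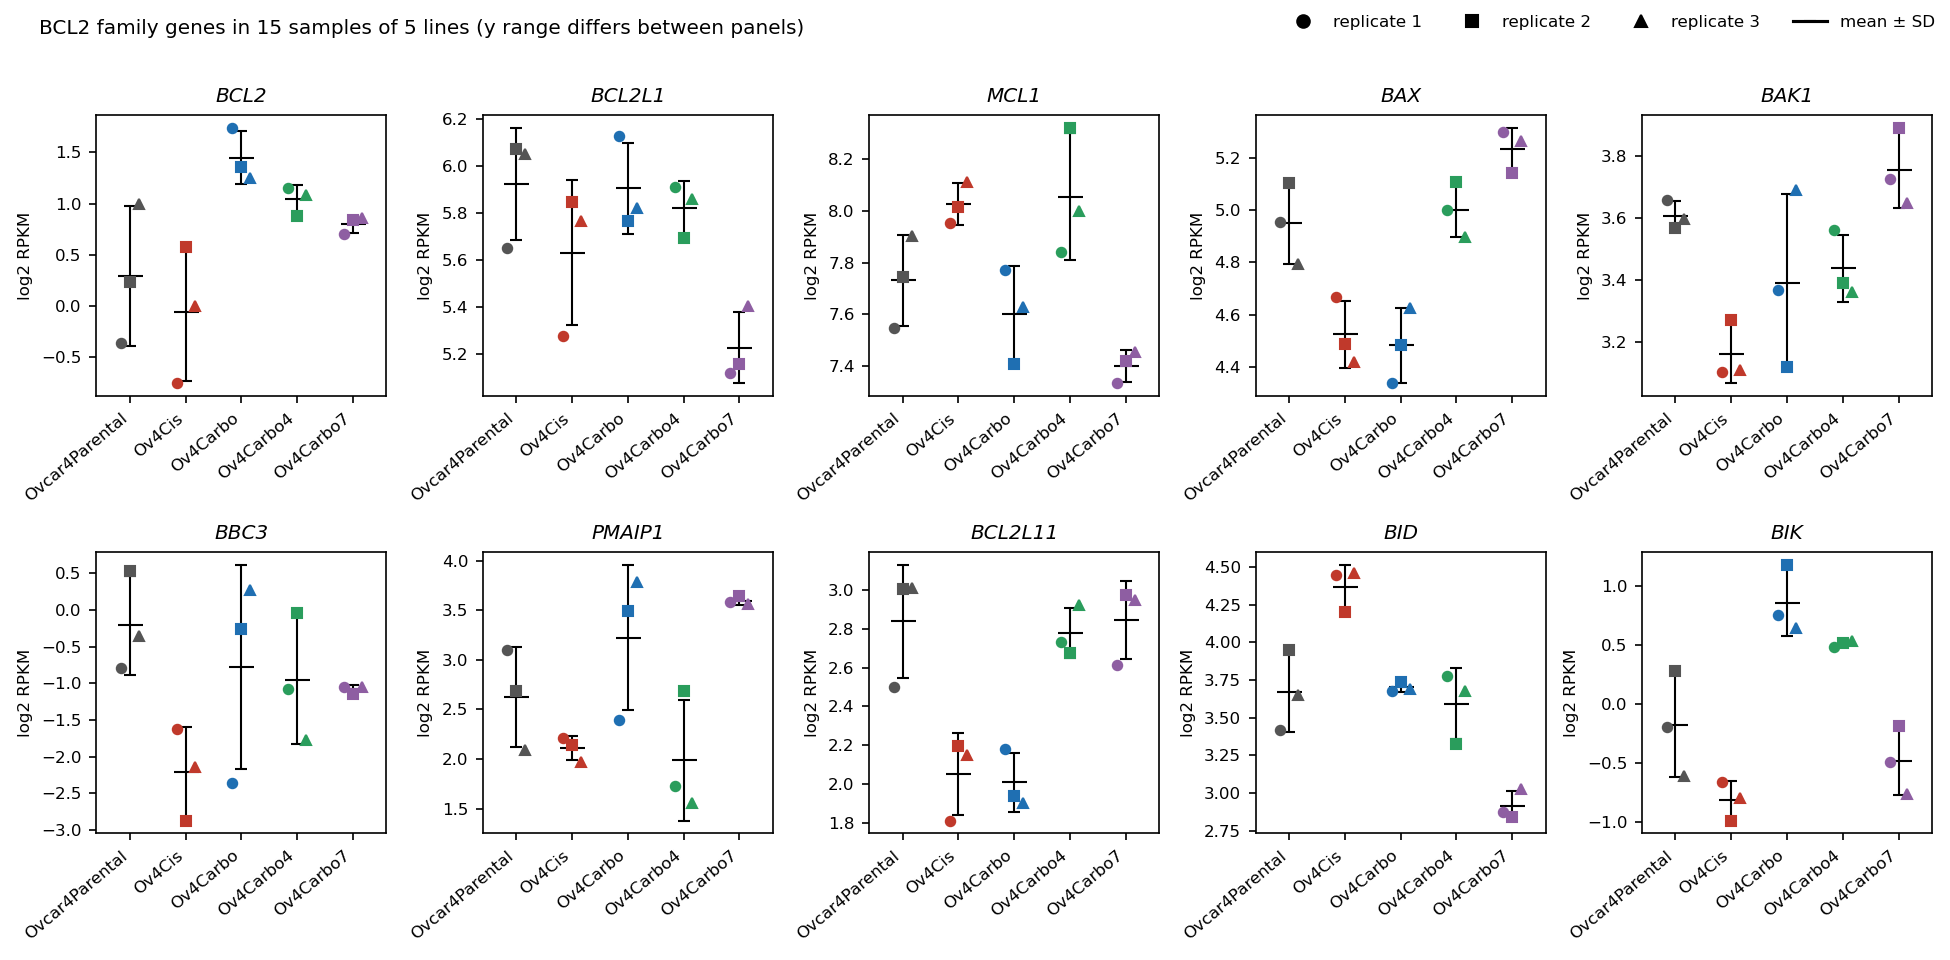
Log2 RPKM (y axis, a range of its own in each panel) of the 10 BCL2 family genes in the 3 replicates of 5 lines (x axis), with the mean ± SD of each line as a black bar. By line mean Ov4Cis is highest for BID and lowest for BCL2, BAK1, BBC3 and BIK. Its values overlap those of at least 1 other line for each of these genes but BID. Ov4Carbo7 is lowest for BID with 3 values at 2.85 to 3.03.

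Each resistant line was compared with the parental line by limma with Benjamini-Hochberg adjustment over all genes, and a gene passed at an adjusted p under 0.05. The 4 comparisons share the parental samples. In Ov4Cis 6 of the 10 genes passed, against 36.2% of all genes. Of the 6, 5 fell (BAX, BAK1, BBC3, BCL2L11 and BIK), where 16.4% of all genes fell, and 1 rose (BID), where 19.8% rose. All 6 promote cell death, BID included, as do most of the 10 members. PMAIP1, also a promoter, did not pass (log2 fold change -0.52, limma adjusted p = 0.297). The median log2 fold change of the 10 was -0.44, against 0.04 over all genes. In Ov4Carbo 4 passed, against a background of 34.0%: BCL2 and BIK rose (17.7% of all genes did), and BAX and BCL2L11 fell (16.2%). In Ov4Carbo4 1 of 10 passed, against 39.7% of all genes: BIK rose and 0 fell, where 21.6% of all genes rose and 18.0% fell. In Ov4Carbo7 3 of 10 passed, against 42.6%: BCL2L1 and BID fell (20.4% of all genes did) and PMAIP1 rose (22.2%). Medians of the 10 log2 fold changes were -0.07, -0.07 and -0.15 in Ov4Carbo, Ov4Carbo4 and Ov4Carbo7, where all genes had 0.03, 0.07 and 0.02. None of the 10 changed in the same direction in all 4 resistant lines, a pattern that 7.75% of all genes showed. BID and BIK passed in opposite directions in different lines (10.7% of all genes did).

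The count in Ov4Cis rested partly on single libraries. It was 2 without replicate 3 of Ov4Cis and 3 without replicate 2 of the parental line, and BCL2L11 and BID passed in every such fit. The count in Ov4Carbo4 was 0 without replicate 1 of the parental line or replicate 2 or 3 of Ov4Carbo4. In Ov4Carbo, a fit to only the 2 groups compared left BCL2L11 as the 1 call. With a term for the title series, BCL2 in Ov4Carbo (1.01, limma adjusted p = 0.0517) and BIK in Ov4Carbo4 (0.84, adjusted p = 0.141) did not pass.

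**Figure D2:**
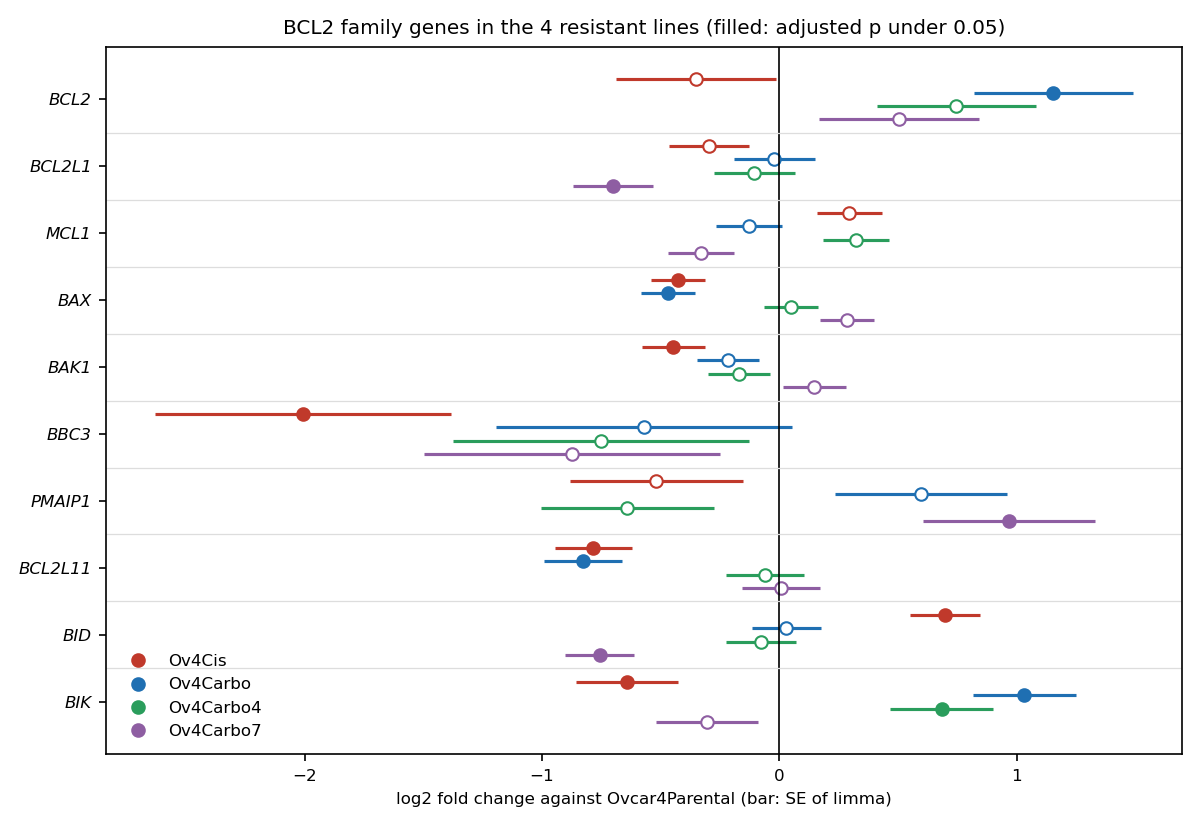
Log2 fold change against Ovcar4Parental (x axis, bars are limma standard errors) of the 10 genes (y axis) in the 4 resistant lines, filled where the adjusted p was under 0.05. Points for BAX, BAK1, BBC3, BCL2L11 and BIK in Ov4Cis are filled and left of 0, while BID lies at 0.70 in Ov4Cis and -0.76 in Ov4Carbo7.

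Among the guardians, BCL2 was weakly transcribed and highest in the carboplatin lines. Replicates 1, 2 and 3 had log2 RPKM -0.36, 0.24 and 1.00 in the parental line, and -0.75, 0.58 and 0.01 in Ov4Cis. Ov4Carbo had 1.74, 1.36 and 1.25, Ov4Carbo4 had 1.15, 0.88 and 1.09, and Ov4Carbo7 had 0.70, 0.84 and 0.86. All 3 Ov4Carbo values lay above the parental range, whereas both clones overlapped it. BCL2 rose 2.23-fold in Ov4Carbo (log2 fold change 1.16, SE 0.34, limma adjusted p = 0.0194). Without replicate 1 or 2 of the parental line or replicate 1 of Ov4Carbo the call was lost (log2 fold change 0.83 to 1.13, adjusted p 0.0517 to 0.0733). On a log2(RPKM + 1) scale, which shrinks changes of weakly expressed genes, the difference was 0.72 (adjusted p = 0.00699). The rises in Ov4Carbo4 (0.75, adjusted p = 0.0975) and Ov4Carbo7 (0.50, adjusted p = 0.251) did not pass. Ov4Cis lay below Ov4Carbo (log2 difference -1.51, adjusted p = 0.00446) and below Ov4Carbo4 (-1.10, adjusted p = 0.0186). Neighbours in the order of line means (Ov4Carbo, Ov4Carbo4, Ov4Carbo7, parental, Ov4Cis) did not pass the test.

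BCL2L1, whose long isoform is BCL-XL, was far more abundant than BCL2. Its RPKM was 49.6 times that of BCL2 in the parental line and 51.5 times in Ov4Cis. In the carboplatin lines the ratio was 22.0 (Ov4Carbo), 27.5 (Ov4Carbo4) and 21.5 (Ov4Carbo7). Its log2 RPKM in replicates 1 to 3 was 5.65, 6.08 and 6.05 in the parental line, 6.13, 5.77 and 5.82 in Ov4Carbo, and 5.91, 5.69 and 5.86 in Ov4Carbo4. Ov4Cis had 5.28, 5.85 and 5.76. Ov4Carbo7 had 5.12, 5.16 and 5.40, below all values of the parental line, Ov4Carbo and Ov4Carbo4 but overlapping Ov4Cis. BCL2L1 fell by 0.70 on the log2 scale in Ov4Carbo7 (1.63-fold lower than parental, SE 0.17, limma adjusted p = 0.0054). It was also lower there than in Ov4Carbo (-0.68, adjusted p = 0.00808) and Ov4Carbo4 (-0.60, adjusted p = 0.0109). In the other lines its difference from the parental line was at most 0.30 in size and did not pass. The table does not separate the long isoform from the short, death-promoting one.

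MCL1, the short-lived guardian that NOXA binds, lay within 1 log2 unit in all 15 samples. Log2 RPKM was 7.55, 7.74 and 7.90 in the parental replicates, 7.95, 8.02 and 8.11 in Ov4Cis, and 7.77, 7.41 and 7.63 in Ov4Carbo. The clones parted: 7.84, 8.32 and 7.9996 in Ov4Carbo4 against 7.33, 7.42 and 7.45 in Ov4Carbo7, with no overlap. No resistant line passed against the parental line, with log2 fold changes between -0.33 and 0.32. MCL1 was lower in Ov4Carbo7 than in Ov4Carbo4 by 0.65 (log2 difference -0.65, SE 0.14, limma adjusted p = 0.0017) and higher in Ov4Carbo4 than in Ov4Carbo (0.45, adjusted p = 0.0199). The latter call was lost without replicate 2 of Ov4Carbo or replicate 2 of Ov4Carbo4 (0.35 and 0.32, adjusted p = 0.0728 and 0.0895) and with a term for the title series (0.28, adjusted p = 0.293). Ov4Cis exceeded Ov4Carbo by 0.42 (adjusted p = 0.0317), which was lost without replicate 2 or 3 of either line (0.33 to 0.44, adjusted p 0.0596 to 0.109).

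BAX, the cytosolic pore former, split the lines into a high and a low set. Ov4Cis (4.67, 4.49 and 4.42 log2 RPKM) and Ov4Carbo (4.34, 4.49 and 4.62) lay below every value of the parental line (4.95, 5.10 and 4.79), Ov4Carbo4 (5.001, 5.11 and 4.90) and Ov4Carbo7 (5.30, 5.14 and 5.26). The only neighbours in the order of line means that differed were the parental line and Ov4Cis. BAX fell by 0.43 in Ov4Cis (SE 0.11, limma adjusted p = 0.0107) and by 0.47 in Ov4Carbo (adjusted p = 0.00774). The call in Ov4Cis was lost without replicate 2 of the parental line or replicate 3 of Ov4Cis (-0.37 to -0.35, adjusted p 0.0505 to 0.0533). Both clones were higher than the Ov4Carbo population they came from, by 0.52 in Ov4Carbo4 (adjusted p = 0.00333) and 0.75 in Ov4Carbo7 (adjusted p = 0.000338). Against the parental line neither clone passed (0.05 and 0.28). Without replicate 1 of Ov4Carbo, the 0.28 of Ov4Carbo7 passed (adjusted p = 0.0482). It also passed with all samples on the log2(RPKM + 1) scale (0.28, adjusted p = 0.0447).

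BAK1 encodes the pore former resident in the mitochondrial membrane. Log2 RPKM was 3.66, 3.57 and 3.60 in the parental line and 3.10, 3.27 and 3.11 in Ov4Cis, with no overlap. Ov4Carbo spread from 3.12 to 3.69, Ov4Carbo4 from 3.36 to 3.56 and Ov4Carbo7 from 3.65 to 3.89. BAK1 fell by 0.45 in Ov4Cis (SE 0.13, limma adjusted p = 0.0181) and passed in no other comparison with the parental line. The call was lost without replicate 1 of the parental line or replicate 1 or 3 of Ov4Cis (-0.42, adjusted p 0.054 to 0.0613). Ov4Carbo7 was higher than Ov4Carbo by 0.36 (adjusted p = 0.0464) although the groups overlapped, and this passed only without replicate 3 of Ov4Carbo among the 15 fits with a sample left out (the other 14 gave 0.23 to 0.42, adjusted p 0.0537 to 0.17). Processed copies of BAK1 exist elsewhere in the genome, so its values carry that uncertainty.

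Levels of a guardian and a pore former were also set against each other within a sample, which cancels a scaling shared by both genes. The difference BCL2L1 minus BAX was 0.98 ± 0.28 log2 units in the parental line (SD, n = 3), 1.11 ± 0.43 in Ov4Cis, 1.42 ± 0.32 in Ov4Carbo and 0.82 ± 0.21 in Ov4Carbo4. In Ov4Carbo7 it was -0.01 ± 0.16, with replicates at -0.18, 0.02 and 0.14. These 3 values lay below all 12 others, the lowest of which was 0.58 in Ov4Carbo4. The RPKM of BCL2L1 was thus 0.994 times that of BAX in Ov4Carbo7, against 1.77 to 2.68 times in the other 4 lines. MCL1 minus BCL2L1 was 1.81 ± 0.12 in the parental line, 2.40 ± 0.26 in Ov4Cis and 1.70 ± 0.09 in Ov4Carbo, and the clones had 2.23 ± 0.36 (Ov4Carbo4) and 2.18 ± 0.11 (Ov4Carbo7). All values of Ov4Cis, Ov4Carbo4 and Ov4Carbo7 lay above the parental ones, the nearest by a small margin in Ov4Carbo4 (1.93 against 1.90). No test was run on these differences.

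**Figure D3:**
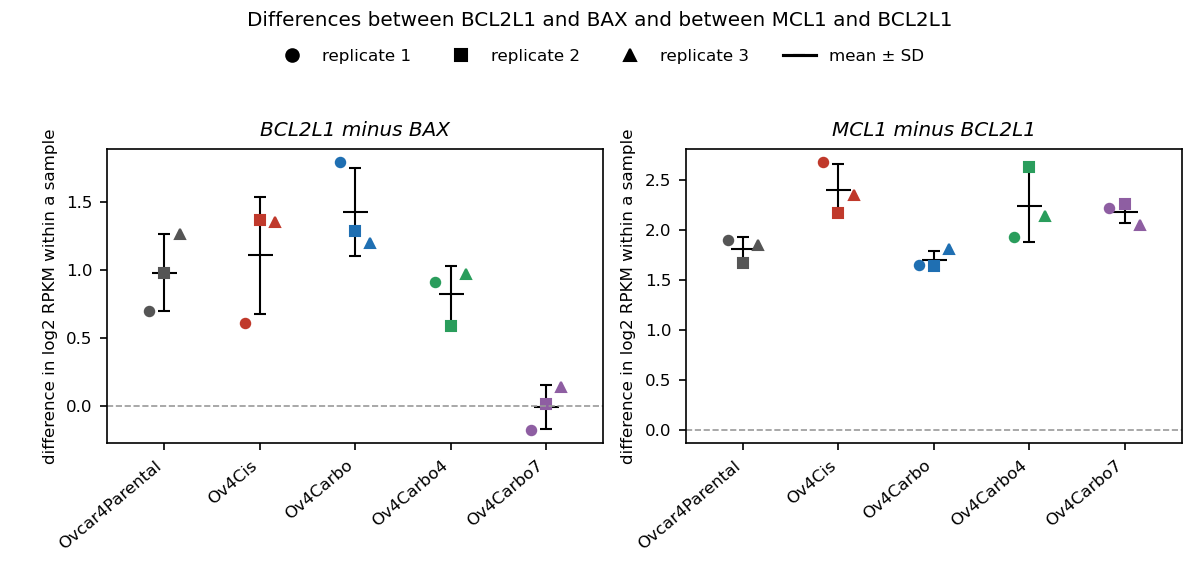
Difference in log2 RPKM within a sample (y axis), BCL2L1 minus BAX on the left and MCL1 minus BCL2L1 on the right, for 3 replicates of each line (x axis) with mean ± SD; the dashed line marks equal levels. On the left the Ov4Carbo7 samples sit at -0.18 to 0.14, below the 12 samples of the other lines.

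Of the BH3-only genes, BBC3 (PUMA, which binds all guardians) was near the bottom of the table. Log2 RPKM was -0.79, 0.53 and -0.36 in the parental line and -1.63, -2.87 and -2.14 in Ov4Cis, without overlap. Ov4Carbo ran from -2.36 in replicate 1 to 0.28 in replicate 3, Ov4Carbo4 from -1.77 to -0.04, and Ov4Carbo7 from -1.15 to -1.04. BBC3 fell in Ov4Cis by 2.01 (4.02-fold lower, SE 0.62, limma adjusted p = 0.0235). The call was lost without replicate 2 of the parental line or replicate 2 or 3 of Ov4Cis (-2.04 to -1.64, adjusted p 0.0544 to 0.0944). On the log2(RPKM + 1) scale the change was -0.63 (adjusted p = 0.0293). Ov4Carbo, Ov4Carbo4 and Ov4Carbo7 did not pass (-0.57, -0.75 and -0.87), and their direction was not settled. With a term for the title series, which rests on replicate 1 of Ov4Carbo, the values were 0.22, 1.62 and 1.499, again not passing. Leaving that sample out gave Ov4Carbo the same 0.22 and left the values of the clones at -0.75 and -0.87. Without replicate 1 of Ov4Carbo, BBC3 was also lower in Ov4Cis than in Ov4Carbo (-2.23, adjusted p = 0.00445).

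PMAIP1 encodes NOXA, which neutralises MCL1 and is induced by the stress factors ATF4 and CHOP (DDIT3). It was found at log2 RPKM 3.10, 2.69 and 2.09 in the parental line, 2.21, 2.14 and 1.97 in Ov4Cis, and 1.72, 2.68 and 1.56 in Ov4Carbo4. Ov4Carbo had 2.39, 3.49 and 3.78, and Ov4Carbo7 was tight at 3.58, 3.64 and 3.56. The clones did not overlap, and Ov4Carbo7 was 3.05-fold higher than Ov4Carbo4 (log2 difference 1.61, SE 0.36, limma adjusted p = 0.00265). PMAIP1 was 1.96-fold higher in Ov4Carbo7 than in the parental line (0.97, adjusted p = 0.048). That call held in 5 of the 15 fits with a sample left out. It was lost without replicate 2 or 3 of the parental line, any replicate of Ov4Cis or Ov4Carbo7, replicate 2 of Ov4Carbo or replicate 1 of Ov4Carbo4 (0.70 to 0.998, adjusted p 0.051 to 0.181). With a term for the title series, which rests on replicate 1 of Ov4Carbo, it was 2.22 (adjusted p = 0.0104). Replicate 1 of Ov4Carbo lay at least 1 log2 unit under the other Ov4Carbo samples. Without it PMAIP1 was higher in Ov4Carbo than in the parental line (1.01, adjusted p = 0.0262, against 0.60 and 0.226 with it). The differences of Ov4Carbo from Ov4Carbo4 (-1.24, adjusted p = 0.0165, for Ov4Carbo4 minus Ov4Carbo) and from Ov4Cis (-1.11, adjusted p = 0.0322, for Ov4Cis minus Ov4Carbo) were -1.65 and -1.53 without that sample. With a term for the title series the first was -0.41 (adjusted p = 0.492). The first was lost without replicate 2 or 3 of Ov4Carbo or replicate 1 or 3 of Ov4Carbo4 (adjusted p 0.0564 to 0.0705), and the second without any replicate of Ov4Cis or replicate 2 or 3 of Ov4Carbo (adjusted p 0.0558 to 0.123).

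ATF4 and DDIT3 transcripts were low in the same Ov4Carbo sample. In replicates 1 to 3 of Ov4Carbo the log2 RPKM of DDIT3 was 3.85, 5.80 and 5.73 and that of ATF4 was 6.08, 7.34 and 7.34. Ov4Carbo7, where PMAIP1 was high in all replicates, had DDIT3 at 5.48, 5.19 and 4.94 and ATF4 at 7.23, 7.16 and 7.05. In the parental line the values of DDIT3 (4.73, 3.50 and 2.998), ATF4 (7.43, 7.02 and 6.70) and PMAIP1 ranked the 3 samples alike, replicate 1 highest and replicate 3 lowest. In Ov4Carbo7 the ranks were not alike: PMAIP1 was highest in replicate 2 (3.64), and DDIT3 and ATF4 were highest in replicate 1. DDIT3 passed in Ov4Carbo7 against the parental line (1.46, limma adjusted p = 0.0421), a call lost without replicate 2 or 3 of the parental line or of Ov4Cis, replicate 3 of Ov4Carbo4 or any replicate of Ov4Carbo7 (adjusted p up to 0.159). Whether either factor acted on PMAIP1 was not tested.

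**Figure D4:**
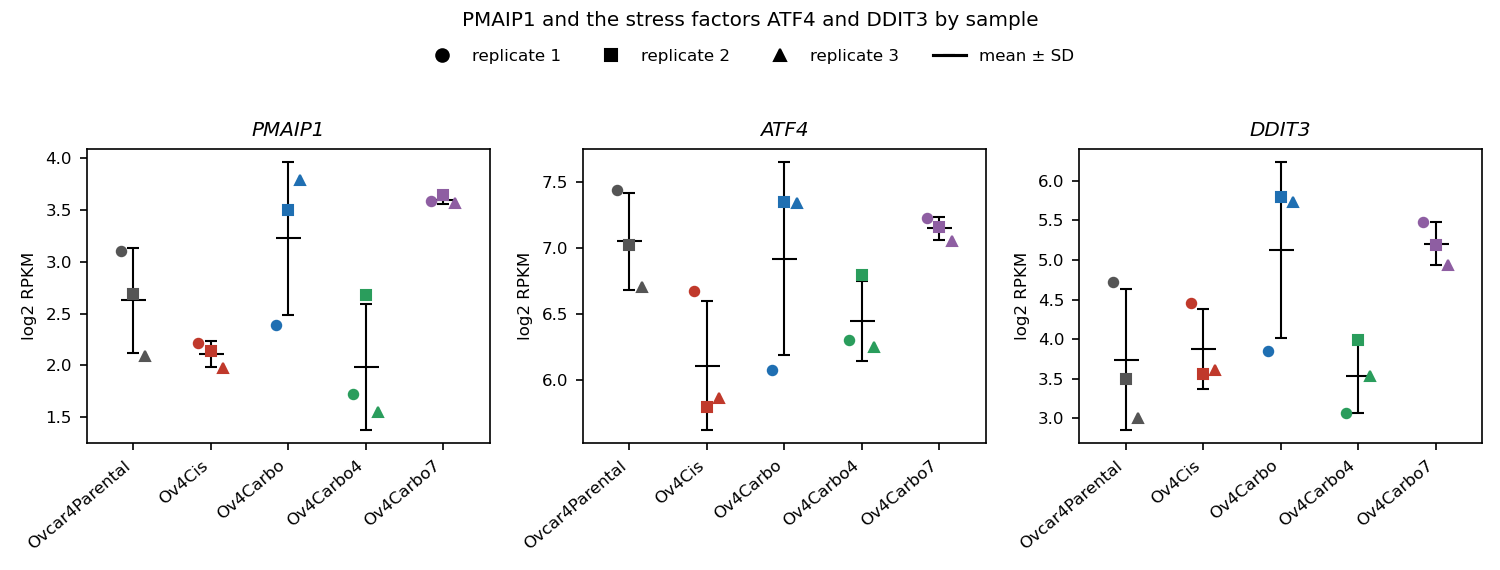
Log2 RPKM (y axis, a range of its own in each panel) of PMAIP1, ATF4 and DDIT3 in the 3 replicates of each line (x axis), with mean ± SD. Replicate 1 of Ov4Carbo is low in all 3 panels, at 2.39, 6.08 and 3.85.

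The upstream windows of PMAIP1 and BCL2L11 are shown because these are the members set beside a transcription factor here. RefSeq's promoter table (GRCh38.p14) held 8 of the 10 members. The first line gives PMAIP1 at chr18:59899746-59899995, plus strand, the 250 bases before its annotated start. Capitals mark the reverse complement of TGACGT, the core of the cyclic AMP response element that ATF4 can bind, at -56 to -51. The second gives BCL2L11 at chr2:111120664-111120913, plus strand, with the FOXO motif GTAAACA in capitals at -223 to -217.
PMAIP1: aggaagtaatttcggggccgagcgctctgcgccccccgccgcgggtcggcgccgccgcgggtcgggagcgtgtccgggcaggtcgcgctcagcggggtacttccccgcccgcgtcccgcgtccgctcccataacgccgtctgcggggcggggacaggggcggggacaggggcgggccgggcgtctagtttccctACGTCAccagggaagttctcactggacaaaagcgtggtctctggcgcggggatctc
BCL2L11: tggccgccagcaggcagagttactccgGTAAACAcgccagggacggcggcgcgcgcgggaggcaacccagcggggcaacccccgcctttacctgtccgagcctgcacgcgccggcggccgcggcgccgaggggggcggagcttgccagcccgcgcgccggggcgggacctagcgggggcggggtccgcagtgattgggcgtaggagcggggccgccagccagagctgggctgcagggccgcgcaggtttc
Searched on both strands, TGACGT occurred in 7.10% of 35116 promoter windows of this length and, among the 8 members, in PMAIP1 alone. It was added to the search after the sequences were seen. The full element TGACGTCA (1.65% of windows) and the C/EBP-ATF element TGATGNAA (3.14%) occurred in none of the 8. GTAAACA occurred in 2.98% of windows and among the members in BCL2L11 alone. The GC box GGGCGG, found in 42.6% of windows, was in 5 of the 8 (BAK1, BAX, BCL2L11, BID and PMAIP1). These shares count windows, whereas a member counts where any of its windows holds the letters. BID and BCL2L1 have more than a single window, so the counts and shares are not on the same footing. A match of letters is a description and not a binding site.

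BCL2L11 encodes BIM, a potent activator of BAX and BAK that is transcribed under FOXO factors. Like BAX it formed a high and a low set. Log2 RPKM was 1.81, 2.20 and 2.15 in Ov4Cis and 2.18, 1.94 and 1.90 in Ov4Carbo. All 6 lay below the lowest of the parental line (2.50, 3.003 and 3.009), Ov4Carbo4 (2.73, 2.68 and 2.92) and Ov4Carbo7 (2.61, 2.97 and 2.95). BCL2L11 fell by 0.78 in Ov4Cis (SE 0.16, limma adjusted p = 0.00236) and by 0.83 in Ov4Carbo (adjusted p = 0.00225). Both calls held in all 15 fits with a sample left out. The clones were at the parental level (log2 fold changes -0.06 and 0.01, not passing) and above Ov4Carbo, by 0.77 in Ov4Carbo4 (adjusted p = 0.00284) and 0.84 in Ov4Carbo7 (adjusted p = 0.00192). With a term for the title series these last 2 did not pass (adjusted p = 0.0732 and 0.0655). FOXO3, a regulator of BCL2L11, fell in Ov4Cis (-0.63, adjusted p = 0.00288), where BCL2L11 fell, and in Ov4Carbo4 (-1.58, adjusted p = 2.64e-06), where BCL2L11 did not pass. FOXO3 did not pass in Ov4Carbo (-0.17) or Ov4Carbo7 (-0.28). FOXO1 fell in Ov4Carbo4 (-0.57, adjusted p = 0.049) and rose in Ov4Carbo7 (0.65, adjusted p = 0.0273), where BCL2L11 did not pass. These calls were lost in 13 and 4 of the 15 fits with a sample left out. FOXO1 did not pass in Ov4Cis or Ov4Carbo. The part of either factor in the levels of BCL2L11 was not tested.

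BID, which caspase-8 cleaves to link death receptors to mitochondria, was high in the cisplatin line and low in 1 carboplatin clone. Ov4Cis had log2 RPKM 4.44, 4.20 and 4.46, above every other sample. Ov4Carbo7 had 2.88, 2.85 and 3.03, below every other sample. The parental line (3.42, 3.95 and 3.65), Ov4Carbo (3.68, 3.73 and 3.69) and Ov4Carbo4 (3.78, 3.33 and 3.68) lay between and overlapped. BID rose by 0.70 in Ov4Cis (SE 0.15, limma adjusted p = 0.00236) and fell by 0.76 in Ov4Carbo7 (adjusted p = 0.00123). Ov4Carbo7 was also below Ov4Carbo (-0.79, adjusted p = 0.00135) and Ov4Carbo4 (-0.68, adjusted p = 0.00193). These calls held in all 15 fits with a sample left out. With a term for the title series the fall in Ov4Carbo7 against the parental line was -0.72 (adjusted p = 0.0713).

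BIK, which encodes a BH3-only protein of the endoplasmic reticulum, was low throughout. It fell in Ov4Cis and rose in Ov4Carbo and Ov4Carbo4, but not in the carboplatin clone Ov4Carbo7 (-0.31 against the parental line, limma adjusted p = 0.281). Ov4Carbo7 overlapped Ov4Cis, and the difference between these lines did not pass (adjusted p = 0.243). Log2 RPKM was -0.20, 0.28 and -0.61 in the parental line, -0.66, -0.99 and -0.80 in Ov4Cis and -0.49, -0.18 and -0.76 in Ov4Carbo7. Ov4Carbo had 0.76, 1.18 and 0.64 and Ov4Carbo4 had 0.48, 0.51 and 0.53, and these 6 values exceeded all 9 of the other lines. BIK rose by 1.03 in Ov4Carbo (2.05-fold, SE 0.22, limma adjusted p = 0.00312), a call that no left-out sample removed. It rose by 0.68 in Ov4Carbo4 (adjusted p = 0.0238), lost without replicate 1 or 3 of the parental line or any replicate of Ov4Carbo4 (0.47 to 0.70, adjusted p 0.0535 to 0.102). It fell by 0.64 in Ov4Cis (adjusted p = 0.0342), lost without replicate 1 or 2 of the parental line or replicate 2 or 3 of Ov4Cis (-0.65 to -0.41, adjusted p 0.0687 to 0.15). On the log2(RPKM + 1) scale the rises in Ov4Carbo and Ov4Carbo4 were 0.57 (adjusted p = 0.00175) and 0.35 (adjusted p = 0.0248), and the fall in Ov4Cis -0.28 (adjusted p = 0.0729). Ov4Carbo7 lay below Ov4Carbo (-1.34, adjusted p = 0.00052) and Ov4Carbo4 (-0.99, adjusted p = 0.0021).

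Counted by comparison, the clones departed from Ov4Carbo in overlapping but unequal sets of members. Against Ov4Carbo, 4 genes passed in Ov4Carbo4, where 42.2% of all genes did: BAX, BCL2L11 and MCL1 were higher (background 23.1%) and PMAIP1 lower (19.2%). In Ov4Carbo7 6 passed, where 36.6% of all genes did: BAX, BAK1 and BCL2L11 were higher (18.5%) and BCL2L1, BID and BIK lower (18.2%). The count of Ov4Carbo4 was 2 without replicate 2 of Ov4Carbo. Of the 6 in Ov4Carbo7, BAK1 was lost in 14 of the 15 fits with a sample left out. BAK1 and BCL2L11 did not pass there with a term for the title series (limma adjusted p = 0.185 and 0.0655). Between the clones 5 passed, against 51.1% of all genes, with PMAIP1 higher (24.0%) and BCL2L1, MCL1, BID and BIK lower (27.1%) in Ov4Carbo7. This last comparison lies within 1 title series. Between the drug selections, 5 passed (background 34.2%): MCL1 and BID were higher (18.1%) and BCL2, PMAIP1 and BIK lower (16.1%) in Ov4Cis than in Ov4Carbo. That count was 3 without replicate 2 or 3 of Ov4Cis or replicate 3 of Ov4Carbo.

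Other genes of the pathway were taken from lists of general knowledge. Over all genes the shares that passed were 36.2% in Ov4Cis, 34.0% in Ov4Carbo, 39.7% for Ov4Carbo4 and 42.6% for Ov4Carbo7, against which the counts of each list stand. Of 11 further BCL2 family genes in the table, 3 rose and 4 fell in Ov4Cis, 5 rose and 3 fell in Ov4Carbo, 2 rose and 0 fell in Ov4Carbo4, and 6 rose and 1 fell in Ov4Carbo7. Without replicate 2 or 3 of the parental line or replicate 2 of Ov4Carbo the 8 calls of Ov4Carbo were 5. Without replicate 2 of the parental line the 7 of Ov4Carbo7 were 4, and without its replicate 3 the 2 of Ov4Carbo4 were 1. Their median log2 fold changes were 0.11, 0.29, -0.00 and 0.31 in that order. BNIP3, a mitochondrial BH3-like protein of hypoxia and mitophagy, had the largest rises: 1.39 in Ov4Cis (limma adjusted p = 2.84e-05), 1.29 in Ov4Carbo and 2.60 in Ov4Carbo7 (6.06-fold, adjusted p = 2.44e-07). Its homolog BNIP3L rose by 1.97 in Ov4Carbo7. BCL2L12 fell by 0.82 in Ov4Cis and 0.81 in Ov4Carbo, and BOK, a BAX-like gene, fell by 1.14 in Ov4Carbo. BCL2L13 rose by 0.98 in Ov4Cis. BMF, a BH3-only gene of detachment, rose by 1.84 in Ov4Carbo4 (adjusted p = 0.0134), which was lost without replicate 3 of the parental line (adjusted p = 0.0541).

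A pair of BH3-only genes outside the naming rule, chosen after their values were seen, fell in Ov4Cis beside BBC3, BCL2L11 and BIK. The parental mean of BMF was -0.35 ± 0.48 log2 RPKM (SD, n = 3) and that in Ov4Cis -2.78 ± 0.30, a log2 fold change of -2.44 (limma adjusted p = 0.00255). HRK had -2.002 ± 0.41 in parental cells and -4.76 ± 0.72 in Ov4Cis (-2.76, adjusted p = 4.06e-05). BMF also fell in Ov4Carbo (-1.53, adjusted p = 0.0381) and Ov4Carbo7 (-1.63, adjusted p = 0.0225), and HRK rose in Ov4Carbo (1.004, adjusted p = 0.0373) and by 2.16 in Ov4Carbo7 to 0.16 ± 0.16. The first was lost without replicate 1 or 2 of the parental line or of Ov4Carbo or any replicate of Ov4Carbo4, and the second without replicate 1 or 2 of the parental line or replicate 3 of Ov4Carbo7. The rise of HRK in Ov4Carbo was lost without replicate 1 or 3 of the parental line or replicate 1 or 2 of Ov4Carbo. BAD, another BH3-only gene of the list, did not pass in Ov4Cis (0.11). These are among the lowest values of the table, and on the log2(RPKM + 1) scale the 2 falls in Ov4Cis were -0.65 and -0.27.

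Downstream of mitochondria, 16 caspase pathway genes were counted. Of these, 3 passed in Ov4Cis (2 rose, 1 fell), 4 in Ov4Carbo (1 rose, 3 fell), 5 in Ov4Carbo4 (2 rose, 3 fell) and 5 in Ov4Carbo7 (3 rose, 2 fell), with medians between -0.03 and 0.05. The Ov4Cis count was 1 without replicate 3 of the parental line or of Ov4Cis and 5 without replicate 2 of Ov4Carbo. The Ov4Carbo count was 7 without its replicate 1. The Ov4Carbo4 count was 3 without replicate 2 or 3 of the parental line or replicate 1 or 3 of Ov4Carbo4. That of Ov4Carbo7 was 2 without its replicate 2 and 3 without its replicate 3. In Ov4Carbo, APAF1, the scaffold of the apoptosome, fell by 0.67, and DFFB, the apoptotic nuclease, rose by 0.61. BIRC3, an inhibitor of apoptosis protein, fell by 2.34 in Ov4Carbo4 and rose by 2.12 in Ov4Carbo7, the latter lost without replicate 3 of the parental line or replicate 2 of Ov4Carbo7 (adjusted p up to 0.0681).

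The death receptor list, which reaches mitochondria through BID, held rises but no falls in the cisplatin line and 1 clone. Of 12 genes in the table, 5 rose and 0 fell in Ov4Cis, 2 rose and 2 fell in Ov4Carbo, 0 rose and 2 fell in Ov4Carbo4, and 6 rose and 0 fell in Ov4Carbo7. The share of all genes that rose was 19.8% in Ov4Cis and 22.2% in Ov4Carbo7. The 5 of Ov4Cis were 3 without replicate 2 of the parental line or replicate 2 or 3 of Ov4Cis, and CASP8, among them, was lost in 12 of 15 such fits, all but those without an Ov4Carbo sample. The 4 of Ov4Carbo were 1 without replicate 2 of either line and 2 without replicate 3 of either. The median was 0.38 in Ov4Cis and 0.62 in Ov4Carbo7. TNFSF10, the ligand TRAIL, rose by 1.20 in Ov4Cis and fell by 1.72 in Ov4Carbo4. Its receptor TNFRSF10B rose by 0.90 in Ov4Carbo and 1.04 in Ov4Carbo7, TNFRSF10A rose by 0.71 and the TNF receptor TNFRSF1A by 1.38 in Ov4Carbo7. FAS fell by 2.33 in Ov4Carbo4 (limma adjusted p = 3.56e-05). Between the clones, 9 of the 12 were higher in Ov4Carbo7 and 0 lower, where 24.0% of all genes were higher. The counts do not separate genes that promote death from those that counter it. The 9 include the inhibitor CFLAR (0.49) and the decoy receptor TNFRSF10C (2.52, or 0.36 on the log2(RPKM + 1) scale). TNFRSF10C was also among the 6 that rose in Ov4Carbo7 against the parental line. BID itself was low in Ov4Carbo7 and high in Ov4Cis.

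Of 15 regulators of the family, 2 rose and 5 fell in Ov4Cis and 3 rose and 2 fell in Ov4Carbo4, while 4 rose and 3 fell in Ov4Carbo7. In Ov4Carbo limma called 0 (3 at an unadjusted p under 0.05), and 2 without replicate 1 of the parental line or of Ov4Carbo and 1 without replicate 3 of Ov4Carbo. These counts rested on single libraries. The 7 of Ov4Cis were 4 without replicate 1 or 2 of the parental line, 2 or 3 of Ov4Cis, 1 or 3 of Ov4Carbo4 or 2 of Ov4Carbo7. The 5 of Ov4Carbo4 were 2 without replicate 2 of the parental line, and 3 without replicate 3 of the parental line, 2 of Ov4Cis, 2 or 3 of Ov4Carbo4 or 3 of Ov4Carbo7. The 7 of Ov4Carbo7 were 3 without replicate 2 or 3 of the parental line or 2 of Ov4Carbo7, and 4 without replicate 1 of the parental line, 3 of Ov4Carbo4 or 1 or 3 of Ov4Carbo7. JUN rose by 1.16 in Ov4Cis. ATF4 fell by 0.94 in Ov4Cis (adjusted p = 0.0443), lost in 9 of the 15 fits with a sample left out (adjusted p up to 0.151): replicates 1 and 2 of the parental line, 2 and 3 of Ov4Cis, 1 and 3 of Ov4Carbo4 and each of Ov4Carbo7.

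**Figure D5:**
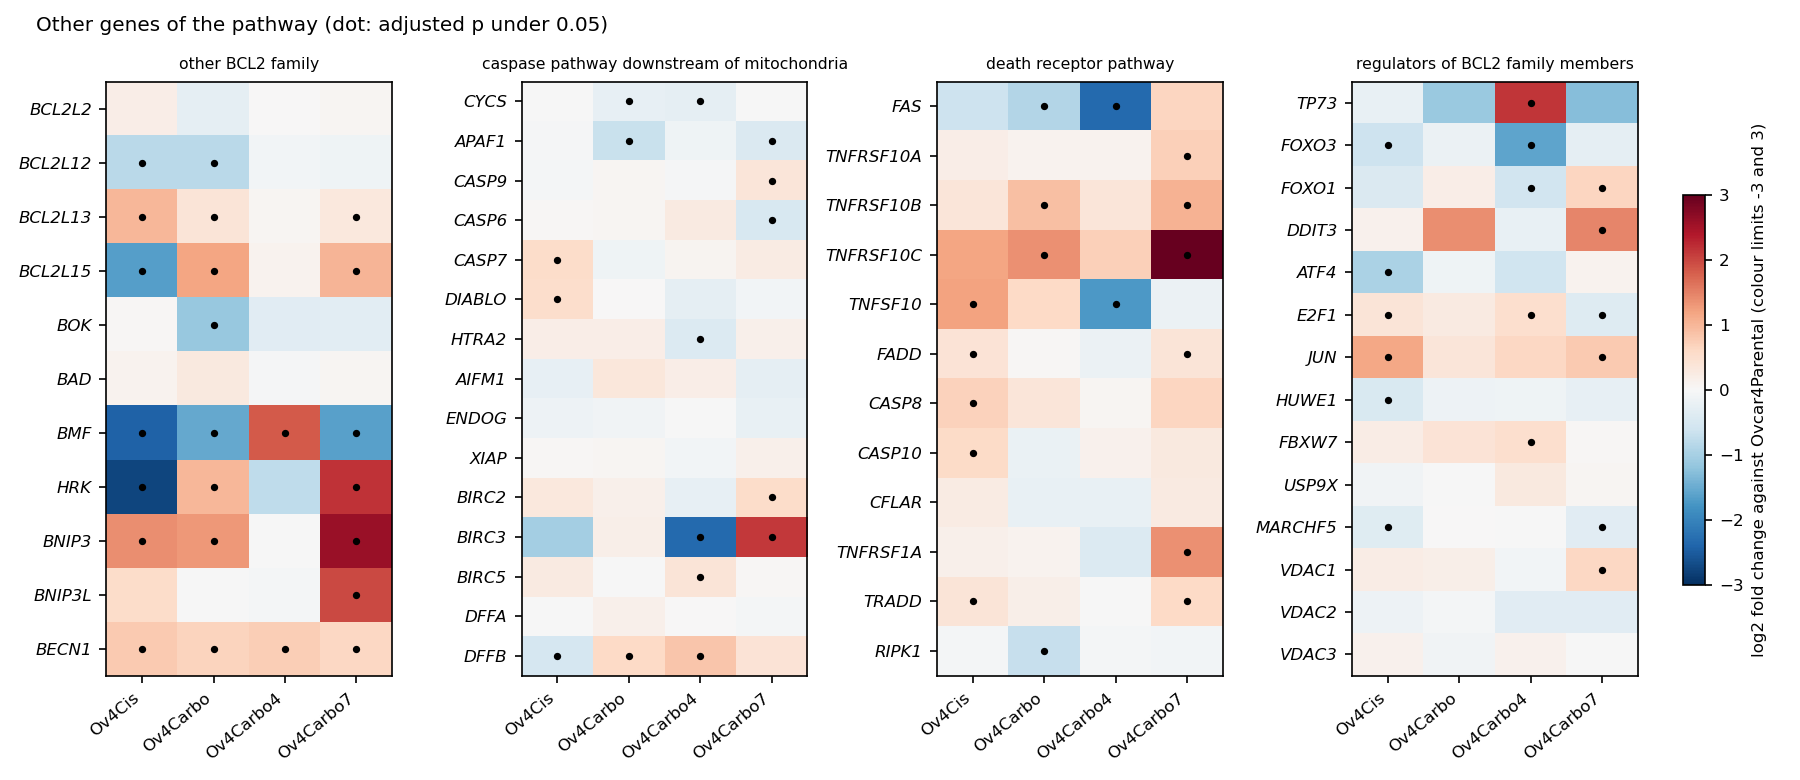
Log2 fold change against Ovcar4Parental (colour, limits -3 and 3) of genes of 4 lists (rows, not every listed gene is drawn) in the 4 resistant lines (columns), with a dot where the limma adjusted p was under 0.05. The Ov4Carbo7 column of the death receptor panel has 6 dots, all on rises, and BNIP3 reaches 2.60 in that line.

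For the 3 members of mean log2 RPKM of at least 1 with the widest range of line means, the genes of most similar pattern were sought among 11977 genes by the root-mean-square difference of centred values over the 15 samples. Nearest to PMAIP1 were VEGFA, a hypoxia and stress responsive growth factor (0.27 log2 units), GARS1, a tRNA synthetase (0.32), and MINDY2 (0.34), where the median gene stood at 0.81. Nearest to BID were GCFC2 (0.16), MINDY3 (0.20) and LRWD1 (0.20), with a median of 0.57. Nearest to BCL2L11 were BCL2L12 (0.16), FKBP4 (0.17) and PRR12 (0.17), with a median of 0.53.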

How the data were processed

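RNA from 15 cultures of 5 lines was measured by RNA-seq with polyA capture. The authors deposited 1 table of log2 RPKM values after conditional quantile normalization and an unexplained threshold, as the table's name states, whose rule is not given in the sources used here. BWA 0.7.15-r1140, HTSeq and hg19 (GRCh37) are named in the submitters' processing notes. The table holds 16604 genes (16448 matched to a symbol) with 0 missing values. Depth is unknown, and precision can be judged from the replicates alone.

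Computed here: two-sided limma tests (version 3.58.1, R 4.3.3, lmFit then eBayes at their defaults) on the deposited log2 values (all genes, all samples), with 1 coefficient per line and no block, and Benjamini-Hochberg adjustment over all genes within each contrast. A gene passed at an adjusted p under 0.05. A log2 fold change is a difference of line means. The model was also run on simulated data with independent noise, where some genes were shifted by at least 1 log2 unit in Ov4Cis alone. Smaller changes, and a spread that differs between lines, were not simulated. Tables and figures used Python 3.11.15, pandas 2.3.3, numpy 2.4.6 and matplotlib 3.10.9.

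All 10 members are described. From the other lists, up to 3 genes per list and comparison with the parental line were named: the largest changes among those that passed, whose values did not overlap and whose higher line mean was at least log2 RPKM 1. The text gives some of these. BMF and HRK, other than BMF in Ov4Carbo4, fall outside that rule, as do BAD, CFLAR, TNFRSF10C, the epithelial markers, and FOXO1 and FOXO3 other than in Ov4Carbo4. ATF4 and DDIT3 also fall outside it where shown per sample. The members and lists were chosen with earlier results of these data known. Same-numbered replicates were not treated as paired, as the labels state no block. The correlation of their deviations from the line means exceeded 0.1 in 11 of 30 pairs (range -0.39 to 0.44). Differently numbered replicates were not compared, so these values cannot show whether same-numbered samples share an effect. Alternative settings were quantile normalization, a variance trend, median centring, log2(RPKM + 1), dropping genes under a mean log2 RPKM of 1 (which left 12037), a fit to only the 2 groups, replicate number as a block, title series as a covariate, a threshold of 0.01, and each sample left out in turn. Proteins and isoforms were not analysed here, and a few listed genes counted in the totals are not reported by name.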

Additional observations from a re-analysis of the deposited data

Results flagged for a closer look

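For BID and BIK, resistant lines that had passed in opposite directions against the parental line were set against each other. That their difference passed limma's test follows from this choice and is no further support. Ov4Carbo and Ov4Carbo4 had not passed for BID, nor Ov4Carbo7 for BIK. The fall of BIK in Ov4Cis and its rise in Ov4Carbo4 were each lost in 7 alternative settings. BID was higher in Ov4Cis than in Ov4Carbo7 by 1.45 log2 units (SE 0.15, limma adjusted p = 1.1e-05), with all 3 Ov4Cis values above the parental range and all 3 Ov4Carbo7 values below it. BIK was higher in Ov4Carbo than in Ov4Cis by 1.67 (SE 0.22, adjusted p = 8.67e-05) and higher in Ov4Carbo4 than in Ov4Cis by 1.33 (SE 0.22, adjusted p = 0.000349).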

How the results depend on the processing

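Of 34 passing differences among 80 (10 genes in 8 comparisons), 22 passed in all 15 fits with a sample left out and 16 under every alternative that gave a value (12 of these had a value under all, the filter leaving out 4 of BCL2 and BIK). No passing difference changed sign. All 34 passed with a variance trend, quantile normalization or median centring, 33 on the log2(RPKM + 1) scale, 25 with only the 2 groups compared, 26 with the title series term and 21 at an adjusted p under 0.01. The filter on low values removed BCL2, BBC3 and BIK and kept 25 of 25 others. With the replicate block 32 of 34 passed. The block took the count from 3 to 2 in Ov4Carbo7 against the parental line (PMAIP1) and from 6 to 5 against Ov4Carbo, and changed no other count.

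Counts moved as follows. For Ov4Cis against the parental line, 6 became 2 at an adjusted p under 0.01, and 2 to 6 with a sample left out. For Ov4Carbo against the parental line, 4 became 2 with the filter, 1 with only the 2 groups, and 3 to 5 with a sample left out. For Ov4Carbo4 against the parental line, 1 became 0 with the filter, the title series term or the stricter threshold, and 0 to 1 with a sample left out (0 without replicate 1 of the parental line or replicate 2 or 3 of Ov4Carbo4). For Ov4Carbo4 against Ov4Carbo, 4 became 2 with only the 2 groups, 1 with the title series term, 2 at the stricter threshold, and 2 to 4 with a sample left out. In Ov4Carbo7, BAK1 against Ov4Carbo was lost in 14 of the 15 fits with a sample left out, and PMAIP1 against the parental line in 10. For Ov4Cis against Ov4Carbo, 5 became 3 with the filter, only the 2 groups or the stricter threshold, and 3 to 6 with a sample left out. The fewer genes or samples in these fits are part of their construction, and the cause was otherwise not tested. The depth is unknown, so how far it limits the low values of BCL2, BBC3 and BIK cannot be given.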
